A study of Bos indicus with 55 samples.

Results

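Endometrium beneath conceptuses made by in vitro fertilisation (IVF) was compared with endometrium beneath conceptuses conceived in vivo after artificial insemination, all on day 16 of pregnancy. Members were taken from the sample titles: 10 samples with an IVF conceptus (7 female, 3 male) and 6 with an in vivo conceptus (3 female, 3 male), 16 of the 27 endometrium samples and of the 55 samples of the series. The other 11 endometrium samples lay beneath nuclear transfer conceptuses and enter below as levels and through the shared estimate of spread. Each sample is intercaruncular tissue (the glandular lining between the attachment sites) from a different cow by the animal numbers in the labels. All were taken from the horn that held the conceptus except in vivo male replicate 2, labelled contralateral. The labels give the cows as Bos indicus, while the series' design text names Bos taurus taurus for the conceptuses. No group without a conceptus was used here, so every value is a level in pregnancy.

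By this stage the bovine conceptus has grown from a sphere into a filament, and its outer cell layer secretes interferon tau, the signal by which a ruminant pregnancy is recognised. Interferon tau acts on the luminal epithelium, stops the release of luteolytic prostaglandin pulses that would end progesterone secretion, and induces interferon-stimulated genes through the lining. The endometrium in turn secretes the glucose, amino acids, lipids and proteins on which the unattached conceptus feeds. Male and female conceptuses can differ in growth and secretion at this time. Differences were taken within each conceptus sex before averaging, so that the 7 female and 3 male IVF samples weigh like the 3 and 3 in vivo ones.

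The count table lists 27607 of its 27619 genes by Ensembl identifier, and 0 of those identifiers occurred in the gene name table that was used. For that reason 44 lists of pathways and cell types, interferon-stimulated genes and progesterone receptor partners among them, had 0 tested members. The tissue label could not be held against its defining markers for the same reason, with 0 of 16 marker lists measured, and the part of other cell types in any result was not tested. In whole tissue, fewer cells of a type and less RNA per cell cannot be told apart. Genes are therefore described by count, size and sample, and 4 are given by identifier.

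The 16 libraries held 5.53 to 9.82 M counts, and the highest total belonged to in vivo male replicate 1. Genes with a count averaged 19072 ± 138 (SD, n = 10) beneath IVF and 19199 ± 54.8 (SD, n = 6) beneath in vivo conceptuses (two-sided exact permutation p = 0.0365, adjusted p = 0.109 over 3 measures per sample). The totals themselves (exact permutation p = 0.250) and the share of counts in the 10 most abundant genes (exact permutation p = 0.404) gave larger p-values. On the first principal component of log2 CPM (counts scaled to library size, with TMM factors), which held 16.7% of the variance over the 27 samples, the IVF samples ran from -40.4 to 32.03 and the in vivo samples from -34.9 to 48.8, so the types overlapped. On the second, with 12.6%, in vivo males 1, 2 and 3 lay at -90.9, -22.6 and -27.7. They were the lowest 3 of all 27, while the IVF samples lay between -7.80 and 22.3 and in vivo females at -7.80, 14.2 and 5.53.

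**Figure D1:**
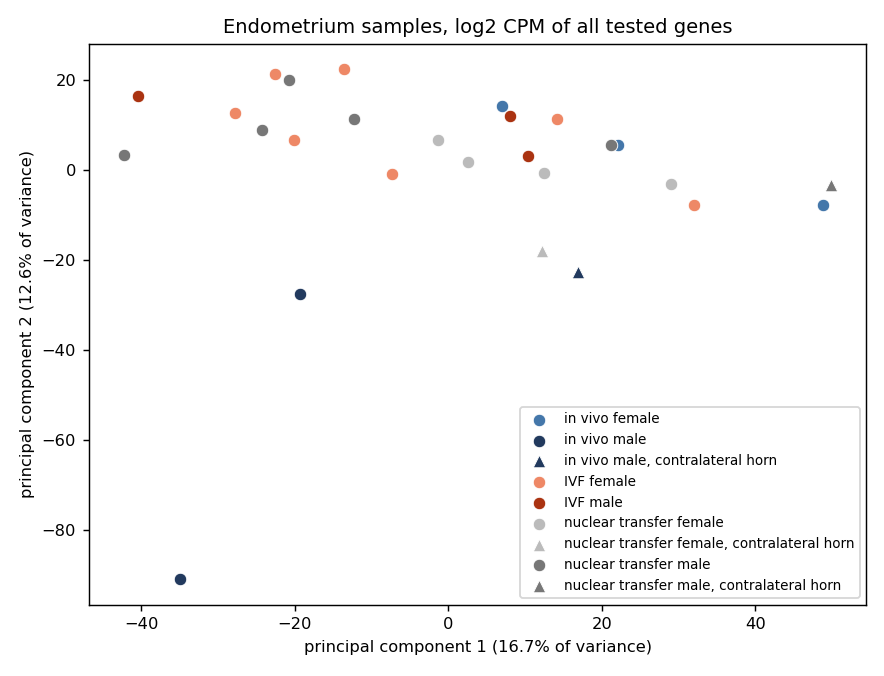
Each point is 1 endometrium sample placed by its first (x, 16.7% of the variance) and second (y, 12.6%) principal component of log2 CPM, coloured by conceptus type and sex, with triangles for the contralateral horn. The 3 in vivo male samples have the lowest values on the y axis, one of them at -90.9, while IVF and in vivo female samples share the upper band.

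Averaged over female and male conceptuses, 2 genes fell beneath IVF conceptuses and 0 rose, out of 15911 tested (0.0126% called by edgeR at an adjusted p under 0.05). At an unadjusted p under 0.05 lay 1698 genes (10.7%), 866 higher and 832 lower beneath IVF, so neither direction prevailed. The middle gene differed by -0.01 on the log2 scale, and the median absolute difference of 0.14 was close to the median standard error of 0.17. DESeq2 on the same design called 91 genes (0.633% of those it gave an adjusted p), 43 higher and 48 lower, and limma voom called 11 (0.0691%), 1 higher and 10 lower. Both edgeR calls were among the calls of the other tools. The 91 DESeq2 genes had a larger difference beneath male than beneath female conceptuses in 83 cases, 90 of them lay at an unadjusted p under 0.05 for males and 34 for females by edgeR, and 85 pointed the same way in both. These 91 were chosen on the average of both sexes, so the shared direction is a description.

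ENSBTAG00000000357, the gene with the smallest p, was lower beneath IVF conceptuses. It stood at 45.0, 37.7 and 48.7 CPM in in vivo males 1, 2 and 3 and at 33.3, 14.0 and 23.7 CPM in in vivo females 1, 2 and 3. The IVF males stood at 15.7, 15.2 and 22.2 CPM and the 7 IVF females ran from 9.44 through a median of 14.5 to 17.9 CPM. All 10 IVF samples lay below all 3 in vivo males, while in vivo female 2 lay inside the IVF range and 3 IVF samples lay below every in vivo sample. The log2 difference was -1.04 with an SE of 0.17 (edgeR adjusted p = 0.0311), made up of -1.30 (SE 0.27, adjusted p = 0.0238) beneath males and -0.78 (SE 0.22, adjusted p = 0.691) beneath females. The 2 sexes' differences were not shown to differ (-0.53, SE 0.35, adjusted p = 0.486). For comparison, the 11 nuclear transfer samples reached 25.0 CPM at most, beside the IVF samples and below the in vivo males.

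ENSBTAG00000005433 had the other call, and its level was set apart in in vivo males alone. It stood at 39.7, 45.3 and 31.3 CPM in in vivo males 1, 2 and 3 against 3.67, 2.23 and 6.04 CPM in in vivo females. IVF males stood at 0.299, 1.23 and 2.68 CPM, and IVF females ran from 0.690 through 1.95 to 6.92 CPM. The 3 in vivo males lay above all 24 other endometrium samples, the highest of which reached 6.92 CPM, and in vivo females overlapped IVF females. The averaged difference of -2.67 (SE 0.45, adjusted p = 0.0311 by edgeR) thus combined -4.75 (SE 0.74, adjusted p = 0.00929) beneath males with -0.59 (SE 0.57, adjusted p = 0.817) beneath females. The test of the difference between the sexes gave -4.16 (SE 0.93, adjusted p = 0.0934 by edgeR). DESeq2 gave an adjusted p = 0.006 for it and limma voom 0.073.

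On the higher side no gene was called by edgeR, and the 2 with the smallest p are given as values. ENSBTAG00000014218 stood at 3.57, 7.74 and 4.57 CPM in in vivo males 1, 2 and 3 and at 47.0, 91.4 and 158.5 CPM in in vivo females. IVF males stood at 373.9, 125.3 and 61.0 CPM and IVF females ran from 46.4 through 182.5 to 317.9 CPM. Here too the in vivo males lay outside the other 24 samples, at the low end, and the in vivo females lay inside the IVF range. The averaged difference was 2.97 (SE 0.57, adjusted p = 0.0535 by edgeR), with 5.15 (SE 0.92, adjusted p = 0.0111) beneath males and 0.79 (SE 0.65, adjusted p = 0.791) beneath females. DESeq2 called this gene on the averaged difference (adjusted p = 3.49e-05) and beneath males (adjusted p = 4.72e-07). By limma voom the adjusted p was 0.259 for the averaged and 0.202 for the male difference.

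ENSBTAG00000006579 stood at 50.8, 94.2 and 98.2 CPM in in vivo males and at 76.5, 124.5 and 221.0 CPM in in vivo females. IVF males stood at 286.1, 171.2 and 256.8 CPM and IVF females ran from 156.1 through 212.9 to 260.3 CPM. Of the 6 in vivo samples only female 3 reached the IVF range. The averaged difference was 1.06 (SE 0.20, adjusted p = 0.0535 by edgeR), with 1.56 (SE 0.31, adjusted p = 0.0238) beneath males and 0.56 (SE 0.26, adjusted p = 0.708) beneath females. DESeq2 called it on the averaged difference (adjusted p = 0.000425) and beneath males (adjusted p = 0.000363), while limma voom gave 0.0969 and 0.0604. Nuclear transfer samples ran from 145.3 to 282.3 CPM, again beside IVF.

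**Figure D2:**
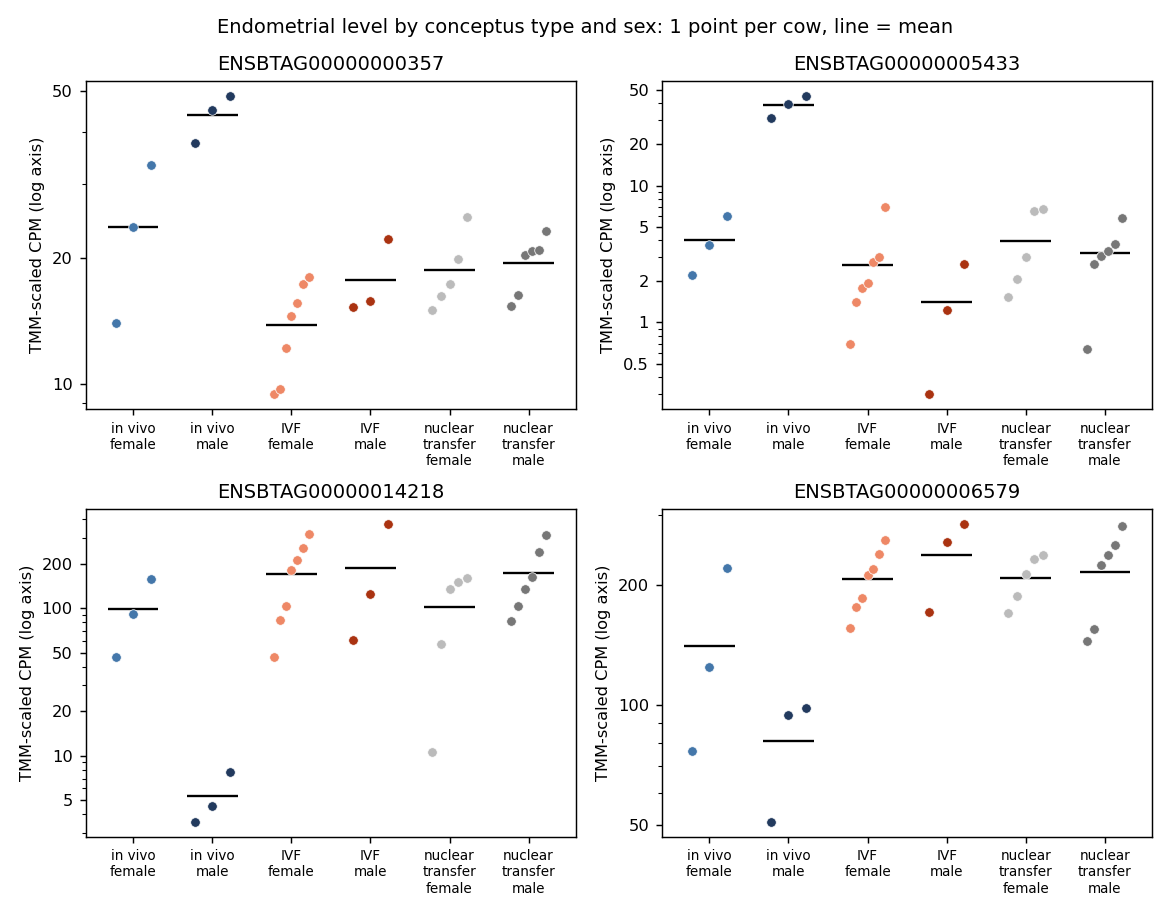
TMM-scaled CPM on log axes for the 4 genes given by identifier, 1 point per cow in each of the 6 groups, with a line at the group mean. In vivo males sit alone at about 31.3 to 45.3 CPM for ENSBTAG00000005433 and at 3.57 to 7.74 CPM for ENSBTAG00000014218, while at least 1 in vivo female lies inside the range of the IVF samples in each of the 4 panels.

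Complete separation of the types was as rare. In 2 genes all 10 IVF samples lay below all 6 in vivo samples (0.0126% of the 15911), and in 0 genes above (0%). Neither was past the threshold. One ran from 11.2 to 25.2 CPM beneath IVF and from 26.2 to 41.8 CPM beneath in vivo conceptuses, with a difference of -0.65 (SE 0.20, adjusted p = 0.258 by edgeR). The other reached 51.6 CPM at most beneath IVF and 52.4 at least beneath in vivo conceptuses, with -0.51 (SE 0.11, adjusted p = 0.0908 by edgeR). The second of these differed about equally beneath females (-0.52) and males (-0.49). In the 4 genes above the male difference was the larger, but no gap between the sexes passed the threshold by edgeR. Their edgeR adjusted p for that gap was 0.486, 0.0934, 0.117 and 0.236, in the order given. By DESeq2 it was 0.45, 0.006, 0.0115 and 0.173, so the gap passed there for ENSBTAG00000005433 and ENSBTAG00000014218. By limma voom it was 0.336, 0.073, 0.232 and 0.264. The 2 genes without overlap were chosen after their values were seen.

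The single tested row that carries a symbol was TBL1X, which stands in the table among Y-linked symbols, so whether its values belong to an X-linked or a Y-linked copy is uncertain. Its in vivo samples ran from 19.7 to 24.2 CPM and its IVF samples from 20.2 to 25.3 CPM, an overlap of most of the range, although the 3 in vivo males lay above the 3 IVF males. In vivo males averaged 23.7 ± 0.848 CPM (SD, n = 3) and IVF males 20.7 ± 0.139 (SD, n = 3), a difference of -0.19 (SE 0.15, adjusted p = 0.532 by edgeR). Only 44.4% of its values over all 27 endometrium samples were whole (within 0.004). A value that is not whole can come from reads divided between similar genes. The other 11 symbols, Y-linked genes such as SRY and DDX3Y among them, held 0 counts in all 16 samples.

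Beneath female conceptuses alone, 7 IVF against 3 in vivo, no gene passed the test: 0 of 15911 (0%) by edgeR. An unadjusted p under 0.05 was reached by 1105 genes (6.94%), 547 higher and 558 lower. DESeq2 called 0 and limma voom 4, all lower. The smallest adjusted p by edgeR was 0.673. The median standard error of the female difference was 0.22 on the log2 scale, below the 0.25 of the male one. All 10 of these samples came from the ipsilateral horn, and the count by edgeR was 0 with any of the 10 left out.

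Beneath male conceptuses, 3 IVF against 3 in vivo, 65 genes differed (0.409% called by edgeR), 24 higher and 41 lower beneath IVF. At an unadjusted p under 0.05 lay 2609 (16.4%). DESeq2 gave 1192 such genes beneath females and 2778 beneath males, and limma voom 2232 and 2054. Without in vivo male 1 edgeR gave 1363 and 1047. Which sex had more thus depended on the tool and on that sample. The 24 higher genes differed by 0.61 to 5.15 on the log2 scale with a median of 1.39, and the 41 lower genes by -0.43 to -6.10 with a median of -1.52, beside a median of -0.01 over all genes. They covered low and high levels, with mean log2 CPM from 0.15 to 8.91. DESeq2 called 455 genes, 64 of the 65 among them, and limma voom 56, which held 38 of the 65. In 34 of the 65 genes the 3 in vivo males lay beyond all 24 other endometrium samples, as they did in 177 of all 15911 genes (1.11%). The 65 were called on in vivo male against IVF male values, which fixes part of this separation, so nothing is read from the count. Across the 41 lower genes the median group level was 6.10 log2 CPM in in vivo males against 4.54 in in vivo females, 4.56 in IVF females, 4.49 in IVF males, 4.62 in nuclear transfer males and 4.91 in nuclear transfer females. Across the 24 higher genes it was 4.42 in in vivo males against 6.42, 6.25, 6.48, 6.33 and 6.04 in the same order. Nuclear transfer females lay nearest to the in vivo males on both sides, and the genes were called for a difference between in vivo and IVF males.

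Female and male differences share no sample, although all samples entered 1 fit, so the scaling and the estimate of spread that called the 65 genes drew on the female samples too. Of the 65, 31 pointed the same way beneath females (47.7%), next to 7179 of all 15911 genes (45.1%). The median female difference was -0.11 over the 24 higher genes and -0.01 over the 41 lower ones, both near 0 and against medians of 1.39 and -1.52 beneath males. At an unadjusted p under 0.05 lay 4 of the 65 beneath females, 2 of them in the male direction. The mean of the in vivo females lay inside the range of the 10 IVF samples for 59 of the 65 (90.8%), a share near the 91.9% of all tested genes. Taken the other way, 478 of the 1105 genes at an unadjusted p under 0.05 beneath females pointed the same way beneath males (43.3%). Across the 15911 genes the 2 differences had a Pearson r of 0.01 and a Spearman rho of -0.08. Genes are not independent replicates.

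**Figure D3:**
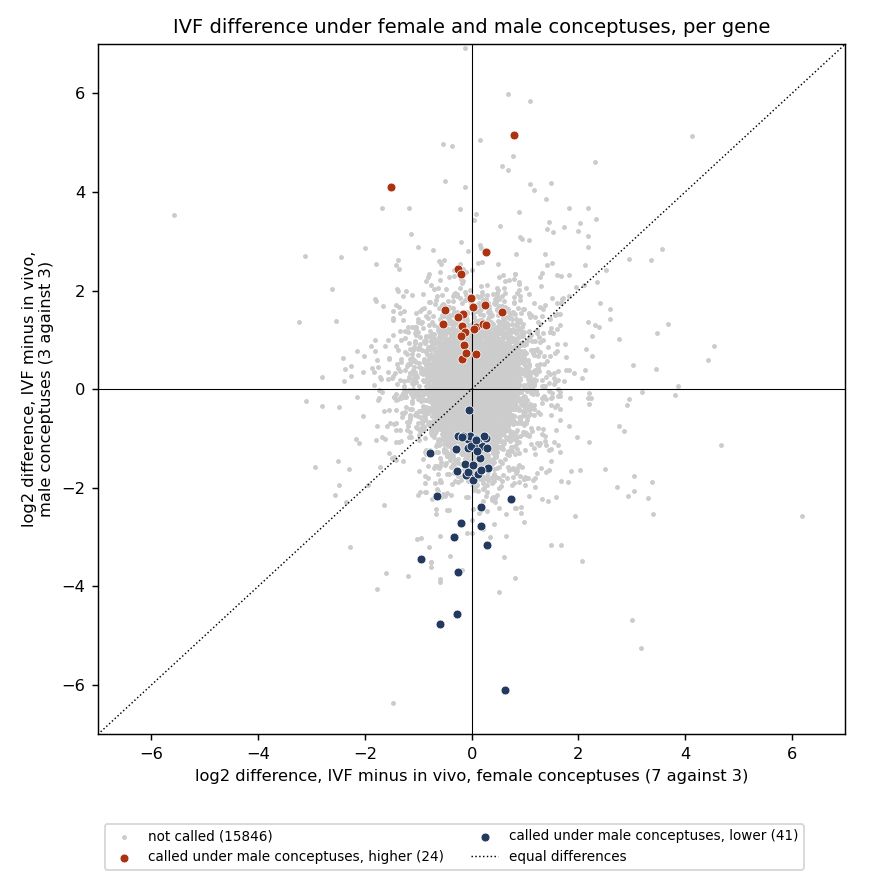
Each point is 1 of the 15911 tested genes, placed by its log2 difference (IVF minus in vivo) beneath female (x, 7 against 3 samples) and male conceptuses (y, 3 against 3), with the 24 higher and 41 lower calls of the male comparison in colour. The coloured points spread along the vertical axis and stay near 0 on the horizontal one, off the dotted line of equal differences.

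Whether the IVF difference depends on conceptus sex was tested directly. By edgeR 1 gene passed (0.00628% called) and 2422 reached an unadjusted p under 0.05 (15.2%), while DESeq2 called 206 and limma voom 3. Both of these tools called the edgeR gene too. The gene stood at 38.0, 62.5 and 77.3 CPM in in vivo males 1, 2 and 3 and at 154.5, 300.2 and 188.9 CPM in in vivo females 1, 2 and 3. The IVF males stood at 143.2, 117.6 and 183.9 CPM and the IVF females ran from 119.4 through 134.6 to 184.7 CPM. IVF samples of both sexes shared 1 range, in vivo males lay below it and 2 of the 3 in vivo females above it. The difference was 1.33 (SE 0.24) beneath males and -0.54 (SE 0.19) beneath females, a gap of 1.86 with an SE of 0.30 (edgeR adjusted p = 0.0355). This gene kept its call with 8 of the 16 samples left out in turn and lost it with the other 8: in vivo female 2, in vivo male 1, IVF females 1, 3, 6 and 7, and IVF males 1 and 3. It was also lost when the 16 IVF and in vivo libraries were fitted alone. Of the 65 genes called beneath males, 64 had an unadjusted p under 0.05 in this test, which reuses the male values that chose them.

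The number of genes called beneath males rested on single samples. From 65 it became 3 without in vivo male 1, 892 without in vivo male 2 (the contralateral sample) and 90 without in vivo male 3. It became 1, 10 and 21 without IVF males 1, 2 and 3. All 65 genes kept their direction in each of these 6 fits. Their medians were 1.23 to 1.65 for the higher genes and -0.96 to -1.60 for the lower ones. The 65 were called on these same male samples, which favours a kept direction, so nothing is read from it. The lower median of -0.96 came without in vivo male 1. Without the 3 contralateral samples of the whole endometrium set the male count was 1011 and the averaged count 103. Without in vivo male 1 as well, an alternative chosen after seeing the data, they were 7 and 0, with 1136 genes at an unadjusted p under 0.05 beneath males. The averaged count of 2 ran from 0 to 37 with 1 of the 16 samples left out. It was 0 without in vivo female 1, in vivo male 3, IVF female 1, 2, 4, 5 or 7, or IVF male 1 or 2. It was 1 without in vivo female 3 or in vivo male 1, each time a higher gene that was not among the 2. The averaged count was 6 without in vivo female 2 or IVF female 3 and 37 without in vivo male 2. Both of the 2 calls were kept with 5 of the 16 samples left out in turn and lost with the other 11.

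**Figure D4:**
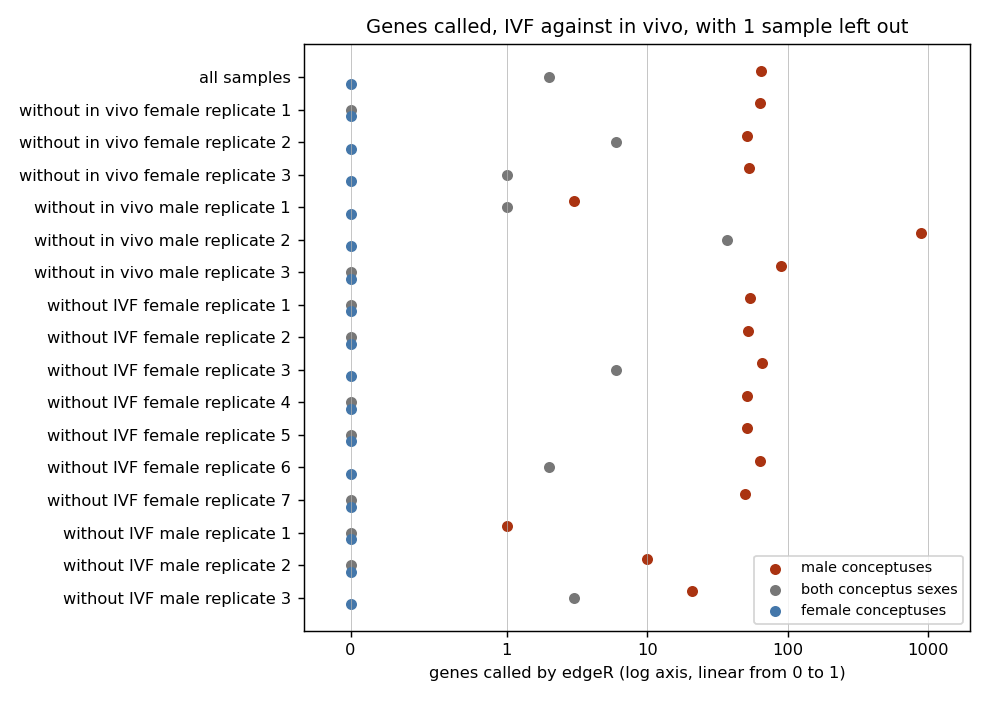
Genes called by edgeR between IVF and in vivo (x, log axis that is linear from 0 to 1) with all samples and with each of the 16 samples left out (y), for male, female and both conceptus sexes. The female count stays at 0 in every row, while the male count runs from 1 to 892.

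In vivo male samples also share a feature of their sample codes, whose meaning the labels do not give: each code holds a letter and a digit, and all 3 in vivo males carry the digit 3. Of the IVF samples, 4 carry that digit as well (females 1, 4 and 6 and male 1). Within digit 3, ENSBTAG00000005433 stood at 31.3 to 45.3 CPM in the 3 in vivo samples and 0.299 to 3.02 CPM in the 4 IVF samples. ENSBTAG00000000357 stood at 37.7 to 48.7 against 14.5 to 17.9 CPM there, ENSBTAG00000014218 at 3.57 to 7.74 against 82.6 to 373.9 CPM, and ENSBTAG00000006579 at 50.8 to 98.2 against 156.1 to 286.1 CPM. The 3 in vivo samples lay beyond the 4 IVF samples in 13.8% of all tested genes within this digit. The in vivo samples there are the in vivo males again, so digit and conceptus sex cannot be told apart among in vivo samples. The 4 genes were also picked for their small p. Nuclear transfer female 4, which carries digit 3 too, stood at 6.47 CPM for ENSBTAG00000005433 and 25.0 CPM for ENSBTAG00000000357. It stood at 160.0 CPM for ENSBTAG00000014218 and 213.5 CPM for ENSBTAG00000006579. Within digit 2 and digit 4 the in vivo samples are all female. The IVF samples there are female 5 in digit 2, and female 2 and male 3 in digit 4, so digit 4 mixes the sexes. ENSBTAG00000005433 stood at 2.23 to 6.04 and 3.67 CPM in vivo against 1.78 and 1.42 to 2.68 CPM for IVF. ENSBTAG00000000357 stood at 14.0 to 23.7 and 33.3 CPM in vivo against 9.70 and 9.44 to 22.2 CPM for IVF. In digit 2 the other two genes overlapped: the IVF sample stood at 103.0 CPM for ENSBTAG00000014218, between in vivo values of 91.4 and 158.5, and at 220.4 CPM for ENSBTAG00000006579, between 124.5 and 221.0. In digit 4 they stood at 47.0 CPM in vivo against 60.98 to 317.9 for IVF and at 76.5 against 256.8 to 260.3. Digit 1 holds no in vivo sample. With the digit as a covariate edgeR called 49 genes beneath males, 31 of the 65 among them.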

How the data were processed

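Endometrial poly(A) RNA was sequenced from 27 cows, of which 16 are described here. The authors deposited estimated counts per gene, not normalized, and 85.2% of values above 0 were whole within 0.004. The submitters' processing notes name the build ARS-UCD1.2 and, without their roles, cutadapt, STAR, featureCounts, Bowtie and DESeq2. The labels state no version, annotation release or strand setting, so overlapping genes may share reads. Totals were 5.53 to 9.82 M.

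Counts were rounded, filtered with filterByExpr (minimum count 10, minimum total 15), scaled by TMM and tested with edgeR 4.0.16 in R 4.3.3 (quasi-likelihood F test, two-sided, Benjamini-Hochberg over 15911 genes, threshold 0.05). All 27 libraries entered 1 fit of 6 group means, and the averaged contrast is the mean of the female and male differences. Standard errors were taken as the log2 fold over the root of F. Log2 CPM used a prior count of 2. DESeq2 1.42.0 and limma 3.58.1 (voom with quality weights) were alternatives, and the scripts were tested on simulated data.

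Members, lists and tests were chosen with earlier results of these data known. The naming rule takes up to 2 called genes a direction by identifier. As 1 tested row has a symbol, the 2 higher identifiers were added by smallest p after their values were seen. The small RNA samples were not analysed here.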

Additional observations from a re-analysis of the deposited data

Results flagged for a closer look

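By edgeR on all 27 libraries, the IVF difference of 1 gene, known by its identifier alone, was not the same beneath male and female conceptuses. DESeq2 (adjusted p = 5.87e-05) and limma voom (adjusted p = 0.0349) called it too. Its edgeR call was lost with 8 of the 16 samples left out in turn. The call was also lost in the 16 IVF and in vivo libraries alone, and with the code digit or the replicate number as a covariate. The male difference minus the female difference was 1.86 log2 units with an SE of 0.30 (edgeR adjusted p = 0.0355), from 1.33 beneath males and -0.54 beneath females. All 3 in vivo males stood below every other endometrium sample, at 38.0 to 77.3 CPM. Dixon's test, applied to the 6 in vivo and the 10 IVF samples for each of the 4 genes given by identifier, marked 0 samples in 8 groups of values.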

How the results depend on the processing

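The 4 genes given by identifier kept their direction in every alternative and with every sample left out. They were picked for their small p in these same samples, which favours a kept direction, so this is a description. With 1 sample left out, the edgeR adjusted p of the averaged difference rose to at most 0.164 for ENSBTAG00000000357 and ENSBTAG00000005433. For ENSBTAG00000014218 and ENSBTAG00000006579 it rose to at most 0.235 with 1 sample left out. Some alternatives gave larger values. With type means without conceptus sex the edgeR adjusted p of ENSBTAG00000014218 was 0.33. With the replicate number as a block the 4 genes had 0.079, 0.0913, 0.246 and 0.139 by edgeR, in the order just given. RLE size factors, both other low-count filters, unrounded counts and robust fitting left all 4 counts of genes called within 1.5 times. The averaged count of 2 became 5 in the 16 IVF and in vivo libraries alone (1 of the 2 kept, ENSBTAG00000000357 lost at an edgeR adjusted p = 0.0827, range 3.49e-05 to 0.087 over alternatives), 91 by DESeq2, 11 by limma voom, 103 without contralateral libraries, 1 with horn as a covariate, 4 with the code digit as a covariate, 0 without contralateral libraries and in vivo male 1, and 0 to 37 with 1 sample left out. The female count of 0 was 4 by limma voom and 0 otherwise. The male count of 65 became 455 by DESeq2, 1011 without contralateral libraries, 140 with horn as a covariate, 7 without contralateral libraries and in vivo male 1, and 1 to 892 with 1 sample left out. The count for the difference by sex, 1, became 10 in the 16 libraries alone (its gene not among them), 206 by DESeq2, 3 by limma voom, 802 without contralateral libraries, 34 with horn as a covariate, 0 with the digit, 0 without contralateral libraries and in vivo male 1, and 0 to 595 with 1 sample left out. With the 16 IVF and in vivo libraries alone edgeR called 60 genes beneath males, 37 of the 65 among them. There ENSBTAG00000000357 (edgeR adjusted p = 0.0685) and ENSBTAG00000006579 (0.0557) lost their male calls. ENSBTAG00000005433 (0.00945) and ENSBTAG00000014218 (0.0191) kept theirs. All 65 male calls were kept in 2 of 13 alternatives and in 1 of the 16 fits with a sample left out. Fewer samples in an arm leave a lone or paired sample assumed to vary like the other groups. The cause of these changes was not tested.

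With the replicate number of the titles as a replicate block, edgeR called 0 genes over both sexes, 0 beneath females, 40 beneath males and 0 for the difference by sex. The numbers mark different cows. Same-numbered samples of different groups deviated from their group means with a mean correlation of 0.00 over 18 pairs (5 above 0.1). Different-numbered samples had a mean of 0.00 over 36 pairs (11 above 0.1). What else same-numbered samples share was not tested. Depth limits low genes: ENSBTAG00000005433 held 0.299 CPM in IVF male 1.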
